A study of Mus musculus with 2 samples.

Results

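Barcodes carrying monocyte or macrophage transcripts were examined within a single-cell RNA sequencing series of sorted T cells. A barcode labels the RNA captured in 1 droplet, and a UMI is 1 distinct captured transcript. The barcodes were selected on expression: each had at least 500 genes detected, no more than 10% of UMIs from mitochondrial genes, 2 or more UMIs of *Csf1r*, *Adgre1* and *C1qa* together, 2 or more of *Lyz2* and fewer than 50 of *S100a8*. The rule found 162 barcodes, 23 from the WT and 139 from the DKO-severe mouse, among 13769 that passed the cell filter and 14350 in all. They are called myeloid barcodes below, and those of *Cd3d*, *Cd3e* and *Cd3g* are called Cd3 UMIs.

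Cells positive for surface TCRβ, the T cell receptor beta chain, came from spleen pooled with lymph nodes (cervical and inguinal) of 1 WT and 1 DKO-severe mouse, both 14 weeks old. Both mice carried *Foxp3Cre*, a Cre recombinase driven by the regulatory T cell gene *Foxp3*. The control is labelled *Foxp3Cre* WT. The DKO-severe mouse was *Foxp3Cre* *Tet2/3* flox/flox and belonged to the group with the larger total number of leukocytes in these organs. Antibody hashtags told the mice apart, Hashtag 1 marking WT and Hashtag 2 marking DKO. Each genotype was 1 sample, so the spread from mouse to mouse was not measured, barcodes do not replicate a genotype, and no test or p-value is given. All intervals below are exact 95% intervals and cover counting error only.

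Monocytes are made in the bone marrow and circulate as classical cells, which are rich in *Ly6c2* and *Ccr2* and enter inflamed tissue, and as nonclassical cells, which patrol vessels and carry *Cx3cr1*, *Ace* and *Treml4*. Resident macrophages of spleen and lymph node engulf dying cells, recycle red cell iron and make the C1q proteins that start the classical complement pathway. Mature macrophages and monocytes do not express the T cell receptor, so the sort would be expected to leave them out.

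The WT matrix held 7189 barcodes with 45294779 UMIs and the DKO-severe matrix held 7161 with 69692053, and they shared 0 barcodes. The median was 5626 UMIs per barcode in WT and 7975 in DKO-severe. In the WT matrix 3 barcodes had at least as many Hashtag 2 as Hashtag 1 counts and were left out.

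The rule genes are described before all others. *Csf1r* (ENSMUSG00000024621, mm10 chromosome 18, 61100598 to 61132149) encodes the receptor of the macrophage growth factor CSF1. Its lowest, median and highest UMI count per barcode was 0, 4 and 9 in WT and 0, 4 and 20 in DKO-severe. *Lyz2* (ENSMUSG00000069516, chromosome 10, 117277331 to 117282321) encodes lysozyme, and its counts were 2, 92 and 303 in WT and 2, 108 and 421 in DKO-severe. Its near-identical neighbour *Lyz1* had 1 and 6 UMIs in all, and reads shared by both copies could be split or lost in the counting. *Adgre1* (ENSMUSG00000004730, chromosome 17, 57358691 to 57483527), the F4/80 antigen, had UMIs in 15 of 23 myeloid barcodes of WT and 81 of 139 of DKO-severe. *Cd68*, a lysosomal glycoprotein of phagocytes that the rule did not use, was found in 18 of 23 and 100 of 139.

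*C1qa* behaved differently from the other rule genes. It had UMIs in 2 of 23 WT and 28 of 139 DKO-severe myeloid barcodes, and 1 WT and 11 DKO-severe barcodes would not have passed without it. At the edge of the rule, 4 WT and 12 DKO-severe barcodes had exactly 2 UMIs of the 3 genes, while 3 and 21 had 1 UMI and met the other parts. For *Lyz2*, 1 and 5 myeloid barcodes had exactly 2 UMIs, and 2 WT and 18 DKO-severe barcodes just outside had 1. The *S100a8* limit removed 0 WT and 12 DKO-severe barcodes. The highest count of *S100a8* kept was 27 and the lowest removed was 59.

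A larger set lay outside on *Lyz2*. In WT 32 and in DKO-severe 121 barcodes met the other parts with 0 or 1 *Lyz2* UMI. Of these, 21 WT and 84 DKO-severe barcodes had 2 or more *C1qa* UMIs. The myeloid barcodes are thus the *Lyz2*-bearing share of the barcodes with such transcripts, and C1q-bearing barcodes low in *Lyz2* are not among them.

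The label of monocyte or macrophage was checked against genes outside the rule. *Tyrobp* and *Fcer1g*, signalling adaptors of myeloid receptors, each had UMIs in 22 of 23 WT myeloid barcodes, and in 136 and 137 of 139 from DKO-severe. *Spi1*, which encodes the myeloid transcription factor PU.1, was found in 22 of 23 and 127 of 139. Some other myeloid genes were found less often: *Cd14* in 1 of 23 and 28 of 139, *Nr1h3* in 1 and 22, and *Cebpa* in 3 and 61. *Tyrobp*, *Fcer1g* and *Spi1* stood at 970, 921 and 228 UMIs per 1000000 in DKO-severe myeloid barcodes. They were higher, at 1333, 1198 and 403, in DKO-severe barcodes at or above the *S100a8* limit, so they do not mark monocytes or macrophages alone. The genes with the highest level over all other filter-passing barcodes, taken as the lower of both genotypes, included *Fn1*, which encodes fibronectin, *F13a1*, a coagulation factor subunit carried by monocytes, *Adgre4*, an adhesion receptor of the F4/80 family, and *Clec4a3*, a lectin receptor of myeloid cells, beside *Csf1r* itself. *Fn1*, *F13a1*, *Adgre4*, *Clec4a3* and *Csf1r* were lower in DKO-severe barcodes at or above the *S100a8* limit. For *Fn1* the level there was 4.98 UMIs per 1000000, against 305 in DKO-severe myeloid barcodes. As the barcodes were chosen on expression, these values are descriptions and not tests. Some genes of resident splenic macrophages were scarce. In WT, *Siglec1*, *Cd209b*, *Vsig4* and *Timd4* had 0 UMIs. In DKO-severe they had 3, 0, 0 and 1. Red pulp macrophage genes varied more. For *Hmox1*, 76 DKO-severe myeloid barcodes held 170 UMIs, and for *Spic* 20 barcodes held 62. *Vcam1* and *Cd5l* had 41 and 52 UMIs there, but *Slc40a1*, *Itgad* and *Cd163* had 21, 16 and 2. The WT counts of *Hmox1* and *Spic* were 6 and 3, and the other 5 genes had 0. C1q UMIs were present in 3 of 23 (WT) and 37 of 139 (DKO-severe) myeloid barcodes.

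Free RNA in droplets gives UMIs in cells that do not express a gene. T barcodes are the other filter-passing barcodes with Cd3 UMIs, fewer than 3 UMIs of B cell genes such as *Cd79a* and *Ms4a1*, and fewer than 50 of *S100a8*, 6910 in WT and 5958 in DKO-severe. *Lyz2* UMIs were seen in 4.10% of WT and 5.94% of DKO-severe T barcodes, and *Csf1r* UMIs in 0.93% and 1.39%. The median depth was 5681 and 8242 UMIs in T barcodes against 15617 and 22554 in myeloid barcodes. *Csf1r* stood at 29.6 and 31.0 UMIs per 1000 *Lyz2* UMIs in WT and DKO-severe myeloid barcodes, and at 121 and 40.4 in T barcodes. *C1qa* stood at 1.06 and 15.7 per 1000 *Lyz2* UMIs in myeloid barcodes and at 161 and 145 in T barcodes. The rule affects both values, as it leaves barcodes with *C1qa* but fewer than 2 *Lyz2* UMIs outside. In WT 18 T barcodes with 5 or more UMIs of *C1qa*, *C1qb* and *C1qc* held 61 of the 93 *C1qa* UMIs of T barcodes. In DKO-severe 62 such barcodes held 230 of 373, so the T values are not a level of free RNA alone.

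The share of myeloid barcodes among filter-passing barcodes was higher in DKO-severe. In WT 23 of 7004 barcodes (0.328%, 0.208 to 0.492%) met the rule, and 139 of 6765 (2.05%, 1.73 to 2.42%) did in DKO-severe, so the intervals did not overlap. Because the rule counts UMIs and the DKO-severe barcodes were deeper, every barcode was also thinned at random to 3900 UMIs, which left out 822 WT and 542 DKO-severe barcodes as shallower. Among those left out were 2 of the 23 WT and 0 of the 139 DKO-severe myeloid barcodes. In the 3 draws 7, 7 and 8 WT and 44, 38 and 52 DKO-severe barcodes still met the rule. The shares were then 0.113 to 0.129% in WT and 0.611 to 0.836% in DKO-severe over 3 random draws, and the lowest DKO-severe interval began at 0.432% while the highest WT interval ended at 0.255%. With 1 preparation per mouse, a difference in what it let through and a difference in the tissue cannot be told apart.

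Most myeloid barcodes also held T cell transcripts. Cd3 UMIs were present in 21 of 23 WT (91.3%, 71.96 to 98.9%) and 123 of 139 DKO-severe myeloid barcodes (88.5%, 82.0 to 93.3%). Over myeloid barcodes thinned to 3900 UMIs the share was 85.7 to 90.5% in WT and 81.3 to 84.2% in DKO-severe, against 99.7 to 99.9% of T barcodes. Among B lineage barcodes, those with 3 or more UMIs of the B cell genes, 71.4% in WT and 52.9% in DKO-severe had Cd3 UMIs, and among the 169 DKO-severe barcodes with 50 or more *S100a8* UMIs 65.7% had.

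The Cd3 counts fell into 2 ranges with little between. In WT 2 myeloid barcodes had 0 Cd3 UMIs, 3 had 1, 2 had between 7 and 9 and 16 had 12 or more. In DKO-severe 16 had 0, 9 had 1, 3 had between 2 and 5 and 111 had 10 or more, up to 227. The wider list of 16 T cell genes, among them *Trac* and *Trbc2* for the receptor chains and the kinase gene *Lck*, showed the same gap: 5 WT barcodes had 3 or fewer UMIs of the list and the other 18 had 29 to 392, while 27 DKO-severe barcodes had 6 or fewer and the other 112 had 28 to 758. The macrophage identity list had a lowest, median and highest count of 2, 109 and 227 UMIs per barcode in WT and 14, 142 and 361 in DKO-severe.

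**Figure D1:**
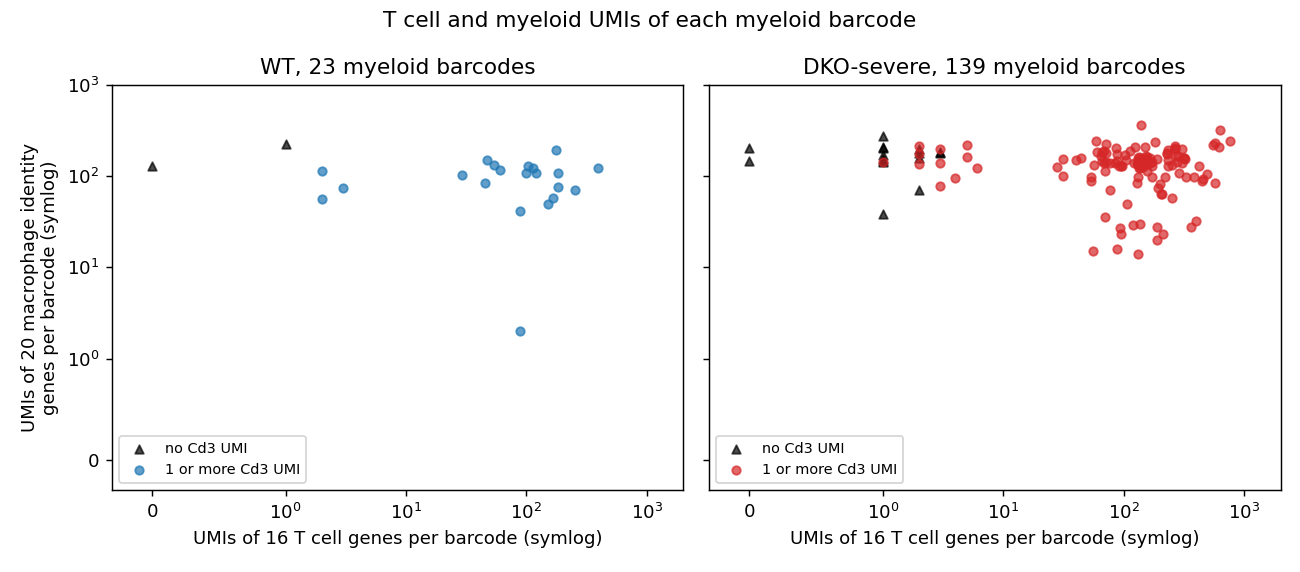
Each point is 1 myeloid barcode of WT (left, 23) or DKO-severe (right, 139), with its UMIs of 16 T cell genes on the x axis and of 20 macrophage identity genes on the y axis, both on a scale that is linear below 1 and logarithmic above. Black triangles are barcodes with no Cd3 UMI, and they lie left of a gap in T cell UMIs together with 3 WT and 11 DKO-severe barcodes that had 1 to 3 Cd3 UMIs.

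Depth moved with the Cd3 UMIs. In DKO-severe the median was 23730 UMIs per barcode with Cd3 UMIs, 13608 without, and 8242 in T barcodes. In WT it was 17247 with Cd3 UMIs, 10750 in the 2 without, and 5681 in T barcodes. The median number of detected genes was 5460 with and 3734 without Cd3 UMIs in DKO-severe, against 2759 in T barcodes.

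The hashtag counts, which the rule did not use, also differed. In DKO-severe the median count of the own hashtag was 13535 in myeloid barcodes with Cd3 UMIs, 3411 in those without and 4804 in T barcodes. In WT it was 4376 with Cd3 UMIs against 1974 in T barcodes, and the 2 without had 1029 and 91035. The hashtag of the other mouse made up a median of 2.57% of both hashtags in WT myeloid barcodes and 0.320% in DKO-severe. It reached 10% or more in 2 of 23 WT and 0 of 139 DKO-severe myeloid barcodes, against 6.30% of WT and 0.185% of DKO-severe T barcodes. Cells of 1 mouse carry the same hashtag, so these counts cannot tell 1 cell from 2 of that mouse.

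Per barcode, the Cd3 counts were higher than in T barcodes and the myeloid counts lower than in barcodes without Cd3 UMIs. DKO-severe myeloid barcodes with Cd3 UMIs had a mean of 51.2 Cd3 UMIs, against 27.2 in T barcodes. They had a mean of 3.73 *Csf1r* UMIs and 121 *Lyz2* UMIs, against 5 and 157 in those without Cd3 UMIs. In WT the mean was 24.4 Cd3 UMIs against 14.3 in T barcodes. Across the 139 DKO-severe myeloid barcodes, the UMIs of the 16 T cell genes and of the 20 macrophage identity genes had a Spearman's rho of -0.11, and across the 23 in WT of -0.16. Both mice were in 1 mRNA library split by hashtag, so the points share that library, and the values describe cells of 1 mouse each.

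Levels were then compared with and without Cd3 UMIs in DKO-severe, as CPM, UMIs per 1000000 of the summed UMIs of a group. Of 9235 genes with 30 or more UMIs over both groups, 14% were higher by 2-fold or more with Cd3 UMIs and 6.97% were lower, and the median log2 ratio was 0.05. All 16 T cell genes were higher by 2-fold or more, as the split itself fixes for the Cd3 genes. *Trbc2*, which the split did not use, was at 1242 CPM with and 39.3 CPM without. Of 19 measured macrophage identity genes 9 were lower by 2-fold or more, with a median log2 ratio of -1.0. *Csf1r* was at 137 CPM with and 315 CPM without, *Spi1* at 197 and 625, and *Tyrobp* at 883 and 2116. All 3 stood lower beside T cell transcripts, and the dilution of 1 set of transcripts by another and a lower level cannot be told apart on this scale.

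MHC class II genes, which present antigen to CD4 T cells, were also lower with Cd3 UMIs. Of 7 genes 6 were lower by 2-fold or more in summed CPM, with a median log2 ratio of -1.63. Barcode by barcode the difference was smaller, as the list summed to a median of 235 CPM with and 314 CPM without, against 5680 and 12081 CPM for the identity list. The highest barcode without Cd3 UMIs stood at 45767 CPM of the MHC class II list, against 4496 CPM for that group summed. With Cd3 UMIs the highest stood at 16976 CPM. *Cd74*, the invariant chain, was at 725 CPM with and 1931 CPM without. Of 5 measured B cell genes 4 were lower by 2-fold or more too: *Cd79a*, a subunit of the B cell receptor, was at 5.09 and 98.3 CPM, with 24 of its 42 UMIs in 1 barcode.

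**Figure D2:**
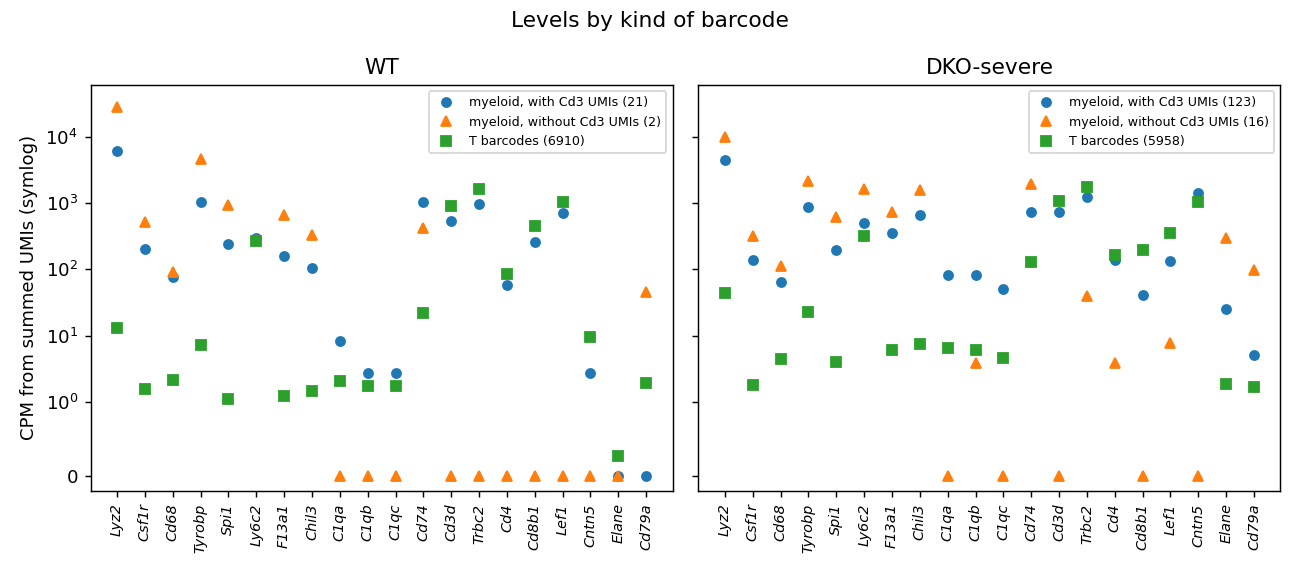
CPM from summed UMIs of 20 genes in myeloid barcodes with Cd3 UMIs (circles), without (triangles) and in T barcodes (squares), for WT (left) and DKO-severe (right), on a scale that is linear below 1 and logarithmic above, with the number of barcodes in the legend. Myeloid genes such as *Lyz2* and *Spi1* are highest in triangles and lowest in squares, T cell genes such as *Cd3d* and *Trbc2* show the reverse order, and C1q genes are at or near 0 in triangles.

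The T cell transcripts in myeloid barcodes carried the genotype of their mouse. *Cntn5* and *Ralyl*, genes best known from neurons, stood at 2.59 and 7.78 CPM in WT myeloid barcodes, and at 1320 and 1391 CPM in those of DKO-severe. In T barcodes they stood at 9.52 and 13.7 CPM (WT) and 1042 and 1303 CPM (DKO-severe). *Lef1*, a transcription factor of naive T cells, stood at 659 CPM (WT) and 124 CPM (DKO-severe) in myeloid barcodes, and at 1031 and 352 CPM in T barcodes. *Il21*, a cytokine of follicular helper T cells, had 137 UMIs in DKO-severe and none in WT myeloid barcodes. Of 11 measured genes of these T cell programmes 7 were higher in DKO-severe myeloid barcodes by 2-fold or more and 3 lower.

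Set against Cd3 UMIs, which myeloid RNA does not dilute, coreceptor genes differed from T barcodes in DKO-severe. *Cd8b1*, a chain of the CD8 coreceptor, stood at 22.1 UMIs per 1000 Cd3 UMIs in DKO-severe myeloid barcodes and 69.8 in T barcodes, and *Cd8a*, the other chain, at 8.7 and 30.1. *Cd4*, the coreceptor of helper T cells, stood at 73.8 and 58.6. *Cntn5* stood at 753 and 370, and *Gzma*, a granzyme, at 32.7 and 90.3. In WT, *Cd8b1* stood at 185 and 204 and *Cd4* at 40.9 and 38.7. Among DKO-severe myeloid barcodes with Cd3 UMIs, 74 of 123 had *Cd4* and no *Cd8a* or *Cd8b1* UMI (60.2%, 51.0 to 68.9%), against 45.7% of T barcodes, and 6 of 123 had CD8 UMIs alone (4.88%, 1.81 to 10.3%), against 29.5%. In WT 3 of 21 had *Cd4* alone (14.3%, 3.05 to 36.3%) and 6 of 21 CD8 alone (28.6%, 11.3 to 52.2%), against 25.7% and 46.9% of T barcodes. Both *Cd4* and CD8 UMIs were present in 6 of 21 WT barcodes (28.6%, 11.3 to 52.2%), against 6.41% of T barcodes. In DKO-severe 23 of 123 had both (18.7%, 12.2 to 26.7%), against 6.76%. These shares were not thinned, and the myeloid barcodes were the deeper ones.

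DKO-severe and WT myeloid barcodes were compared gene by gene as the log2 ratio of CPM, with fewer than 3 UMIs counted as 3. The sums were 385673 UMIs in WT and 3597236 in DKO-severe. Of 9498 genes with 30 or more UMIs over both, 10.5% were higher in DKO-severe by 2-fold or more and 5.45% were lower, and the interval excluded 0 for 737 of those 997 higher and 426 of those 518 lower genes. The median log2 ratio over all 9498 was 0.10. The summed CPM of the 16 T cell genes was 6106 in WT and 5953 in DKO-severe, and their median log2 ratio was -0.00.

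The genes targeted by the cross were measured first. *Tet2* had 46 UMIs in WT (119 CPM) and 403 in DKO-severe (112 CPM), a log2 ratio of -0.09 (-0.53 to 0.38), and *Tet3* was at 117 and 102 CPM, -0.20 (-0.65 to 0.28). Cre is driven by *Foxp3*, which monocytes are not known to express, and the kit reads transcripts at their 3' end, so these counts are no check of deletion. *Tet1* had 6 and 5 UMIs.

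Most genes of general myeloid identity lay within 2-fold. Of 20 measured genes 3 were higher in DKO-severe by 2-fold or more and 0 lower, with a median log2 ratio of -0.19. *Cebpa*, a transcription factor of early myeloid cells, had 3 UMIs (WT) and 132 UMIs (DKO-severe), 2.24 (0.66 to 4.53), and was found in 61 of 139 barcodes of the latter. *Maf*, which both macrophages and follicular helper T cells express, was at 15.6 and 297 CPM, 4.25 (3.13 to 5.70), and at 35.4 CPM in the 16 DKO-severe barcodes without Cd3 UMIs against 289 CPM in T barcodes. *Spi1* was at 283 and 228 CPM, -0.31 (-0.60 to -0.01), and *Tyrobp* at 1245 and 970 CPM, -0.36 (-0.50 to -0.22).

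Classical monocyte genes were higher in DKO-severe. Of 8 measured genes 4 were higher by 2-fold or more and 0 lower, with a median log2 ratio of 0.95. *Chil3*, a chitinase-like secreted protein, was at 117 CPM (WT) and 723 CPM (DKO-severe), with a log2 ratio of 2.63 (2.21 to 3.09). *Vcan*, the matrix proteoglycan versican, was at 23.3 and 112 CPM, 2.26 (1.32 to 3.40). *F13a1* was at 189 and 380 CPM, 1.01 (0.67 to 1.37), and *Fn1* at 163 and 305 CPM, 0.90 (0.54 to 1.29).

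*Ly6c2*, which encodes the antigen that defines classical monocytes in the mouse, was at 293 and 587 CPM, 1.00 (0.73 to 1.29). It is also a T cell gene, and was at 268 and 321 CPM in WT and DKO-severe T barcodes. *Ccr2*, the receptor that calls monocytes out of the marrow, was at 334 and 301 CPM, -0.15 (-0.42 to 0.12), an interval that holds 0. Without 17 DKO-severe barcodes that carried granule genes, described further on, *Ly6c2* had a log2 ratio of 0.42 and *F13a1* of 0.45.

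Nonclassical monocyte genes were lower in DKO-severe. All 8 had a log2 ratio below 0 and 7 were lower by 2-fold or more, with a median of -1.61. *Ace*, angiotensin converting enzyme, was at 145 and 26.1 CPM, -2.47 (-2.97 to -1.97). *Cx3cr1*, the fractalkine receptor, was at 207 and 54.5 CPM, -1.93 (-2.31 to -1.53). *Adgre4* was at 301 and 85.3 CPM, -1.82 (-2.13 to -1.50), and its UMIs were in 22 of 23 (WT) and 77 of 139 (DKO-severe) myeloid barcodes. *Ear2*, an eosinophil-type ribonuclease, was at 90.8 and 34.2 CPM, -1.41 (-1.96 to -0.82). *Treml4*, a receptor of nonclassical monocytes, was at 51.9 and 24.2 CPM, -1.10 (-1.81 to -0.32). *Pou2f2*, a transcription factor also made in T barcodes, was at 249 and 211 CPM, -0.24 (-0.55 to 0.08).

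**Figure D3:**
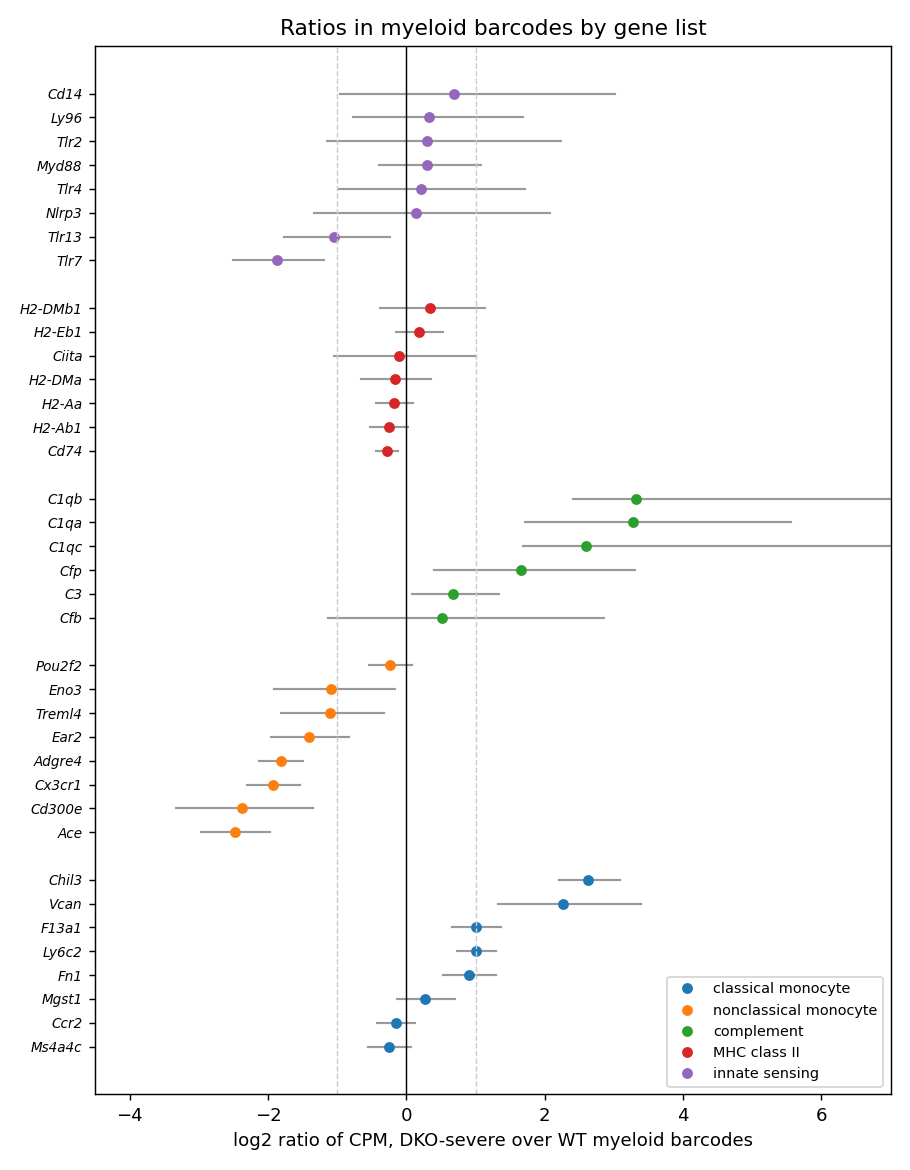
Log2 ratio of CPM in 139 DKO-severe over 23 WT myeloid barcodes for genes of 5 lists with 30 or more UMIs. Points are ratios, grey lines are exact 95% intervals for counting error, which run past the right edge for *C1qb* and *C1qc*, and dashed lines mark 2-fold. The nonclassical genes all lie left of 0, while the complement genes drawn, which include the rule gene *C1qa*, all lie right of it.

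The same was visible barcode by barcode. List genes under 10 CPM in T barcodes of both genotypes were summed, which left *Vcan*, *F13a1*, *Chil3*, *Fn1* and *Mgst1* for the classical and *Ace*, *Treml4*, *Cd300e*, *Eno3*, *Ear2* and *Adgre4* for the nonclassical list. The classical sum had a lowest, median and highest value of 0, 2 and 66 UMIs in WT and 0, 30 and 243 in DKO-severe. The nonclassical sum had 0, 9 and 28 UMIs in WT and 0, 2 and 30 in DKO-severe. The ranges overlapped, but 39 of 139 DKO-severe barcodes lay above the highest WT value of the classical sum, and 1 did for the nonclassical sum. These sums were not scaled to depth, and the median depth was 15617 UMIs in WT and 22554 in DKO-severe. The highest WT value is that of only 23 barcodes, and the 17 DKO-severe barcodes with granule genes are included.

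More UMIs of the nonclassical than of the classical genes were seen in 14 of 23 WT (60.9%, 38.5 to 80.3%) and 37 of 139 DKO-severe myeloid barcodes (26.6%, 19.5 to 34.8%). The reverse held for 8 of 23 (34.8%, 16.4 to 57.3%) and 90 of 139 (64.7%, 56.2 to 72.7%). The sums lay within 1 UMI of each other in 1 WT and 18 DKO-severe barcodes, and both were 0 in 1 and 12 of them. In the 16 DKO-severe barcodes without Cd3 UMIs, 11 had more classical and 5 more nonclassical UMIs, and both WT barcodes without Cd3 UMIs had more classical UMIs. The difference between genotypes was thus seen in barcodes with Cd3 UMIs, and these include barcodes with only 1. The 3 WT barcodes with 1 Cd3 UMI had 10, 20 and 27 nonclassical against 0, 0 and 1 classical UMIs. In DKO-severe such barcodes lay on both sides, for example with 106 classical and 1 nonclassical UMI or with 2 and 19. Between the 2 WT and the 16 DKO-severe barcodes without Cd3 UMIs, the median log2 ratio was -0.03 for the classical and -0.48 for the nonclassical list.

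**Figure D4:**
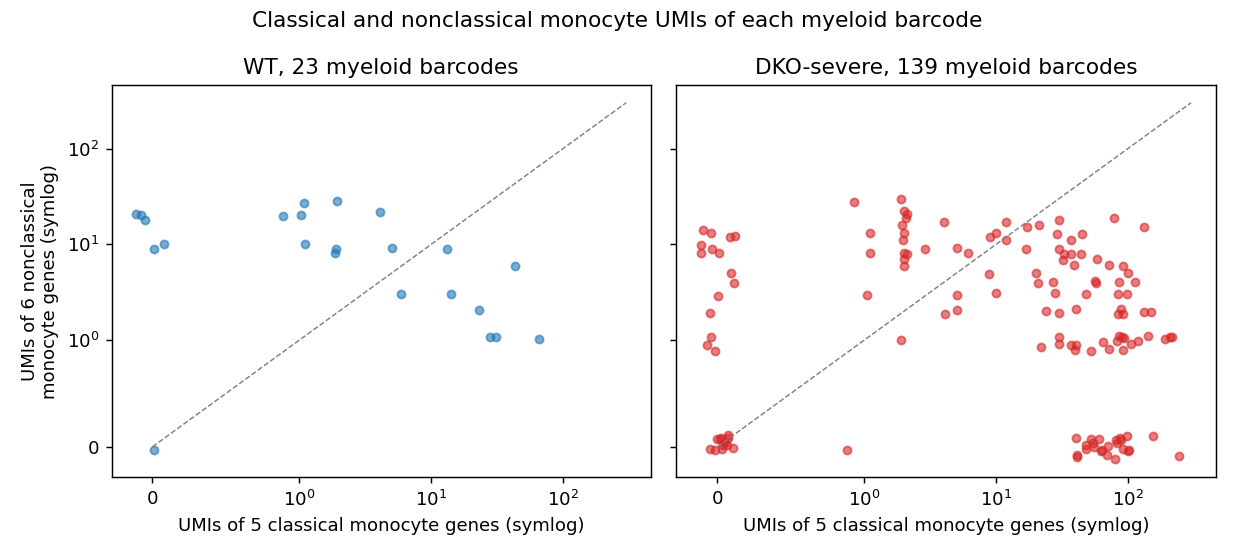
Each point is 1 myeloid barcode of WT (left, 23) or DKO-severe (right, 139), with its UMIs of 5 classical monocyte genes on the x axis and of 6 nonclassical genes on the y axis, on scales that are linear below 1 and logarithmic above, and with a small random shift to part equal values. Points above the dashed line of equality make up 14 of 23 in WT and 37 of 139 in DKO-severe.

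Some lipid and sensing genes differed. *Cd36*, a scavenger receptor for lipids, was at 101 CPM in WT against 14.5 CPM, a log2 ratio of -2.81 (-3.43 to -2.17), with UMIs in 9 of 23 and 21 of 139 myeloid barcodes. *Apoe*, a lipid carrier, was at 1237 and 579 CPM, -1.09 (-1.24 to -0.95). It was at -0.92, inside 2-fold, without the WT barcode that held most of its UMIs, and at -1.73 in barcodes without Cd3 UMIs. *Fabp5*, a fatty acid binding protein, was at 67.4 and 151 CPM, 1.17 (0.60 to 1.79). Of 8 measured lipid handling genes 3 were higher by 2-fold or more, 2 of them with an interval that excluded 0, and 1 was lower (median 0.17). Of 8 for the uptake of dying cells 1 was higher and 1 lower (median -0.44). *Tlr7*, a sensor of single-stranded RNA, was at 75.2 and 20.6 CPM, -1.87 (-2.51 to -1.20), and *Tlr13*, a sensor of bacterial ribosomal RNA, at 49.3 and 23.9 CPM, -1.04 (-1.77 to -0.24). The other 6 of 8 measured sensing genes lay within 2-fold. Of 6 Fc receptor genes, *Fcgr1*, the high affinity IgG receptor, was higher at 12.96 and 38.92 CPM, 1.59 (0.33 to 3.23), and the other 5 lay within 2-fold. Over all genes 10.5% were higher and 5.45% lower by 2-fold or more, and 1 gene of a list this short is near such shares.

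Lysosomal, MHC class II and most cytokine genes lay within 2-fold. None of 17 lysosomal genes was past 2-fold in either direction (median log2 ratio 0.22), and none of 7 MHC class II genes was (median -0.17). Single barcodes set the direction of the latter: without the WT barcode that held most UMIs of the gene, *H2-Aa* had a log2 ratio of 0.82, *H2-Ab1* of 0.64 and *Cd74* of 0.32. In barcodes without Cd3 UMIs, where the 2 of WT held 9 UMIs of *Cd74* and 3 of *H2-Aa*, the median over 5 measured genes was 2.21. The MHC class II UMIs were held by few barcodes: 10 or more UMIs of *H2-Aa*, *H2-Ab1* and *H2-Eb1* were present in 3 of 23 (WT) and 30 of 139 (DKO-severe) myeloid barcodes, which held 94.3% and 96.8% of them. Of 12 measured cytokine and chemokine genes 3 were higher by 2-fold or more, namely *Ccl3*, with an interval that holds 0, *Ccl4* and *Cxcl10*, and *Ccl3* and *Ccl4* were also at 162 and 373 CPM in DKO-severe T barcodes. *Il6* and *Il12b* had 0 UMIs in both genotypes. Of 11 interferon-stimulated genes *Isg15* was higher, 1.26 (0.54 to 2.08), and *Usp18*, which dampens interferon signalling, lower, -1.18 (-1.96 to -0.32), with a median of -0.22.

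The C1q genes differed most among the complement genes. *C1qa* (chromosome 4, 136895917 to 136898803), *C1qc* (136889804 to 136893065) and *C1qb* (136880129 to 136886187) lie next to each other on the minus strand of mm10 and encode the 3 chains of C1q. *C1qb* had 279 UMIs in DKO-severe and 1 in WT, which gave a log2 ratio of 3.32 (2.41 to 10.21) with the WT count set to 3. *C1qc* had 169 and 1, 2.59 (1.68 to 9.49). *C1qa*, which the rule used, had 272 and 3. All 7 measured complement genes had a log2 ratio above 0 and 4 were higher by 2-fold or more, against 10.5% of all genes. These 4 include *C1qa*, which helped choose the barcodes, and *C1qb* and *C1qc*, whose UMIs occurred together with it. As 1 WT and 11 DKO-severe barcodes passed only with *C1qa*, the count of 4 is a description and no independent result. The fourth was *Cfp*, which encodes properdin, with 1.66 (0.40 to 3.30). In barcodes without Cd3 UMIs 1 of the 7, *C3*, the central complement protein, could be measured, and it turned direction, at 372 CPM in the 2 of WT and 146 CPM in the 16 of DKO-severe.

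The promoters of *C1qb* and *C1qc* are shown because UMIs of all 3 C1q genes occurred together in 22 DKO-severe barcodes. They run from 250 bases before to 50 after the start in RefSeq on GRCm38.p6, chr4:136886151-136886450 and chr4:136892865-136893164, both on the minus strand, and *C1qa* was not matched in that table. Capitals mark the letters GAGGAA or, on the other strand, TTCCTC, a core that PU.1 is known to bind. Each promoter held 1 match, as did 28.3% of all 32851 promoters of the same length with 1 or more.
C1qb: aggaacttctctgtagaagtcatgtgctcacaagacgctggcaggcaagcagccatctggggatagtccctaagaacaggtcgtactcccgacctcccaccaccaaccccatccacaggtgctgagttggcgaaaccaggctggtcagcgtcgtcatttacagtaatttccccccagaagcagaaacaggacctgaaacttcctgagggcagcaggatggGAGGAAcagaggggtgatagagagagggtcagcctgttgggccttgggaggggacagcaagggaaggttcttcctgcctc
C1qc: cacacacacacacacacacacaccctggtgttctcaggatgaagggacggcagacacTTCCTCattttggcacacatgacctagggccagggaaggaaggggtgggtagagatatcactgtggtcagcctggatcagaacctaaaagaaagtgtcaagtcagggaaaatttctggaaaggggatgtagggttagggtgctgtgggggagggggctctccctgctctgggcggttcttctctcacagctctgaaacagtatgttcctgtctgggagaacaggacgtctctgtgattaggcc

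C1q UMIs were concentrated in few barcodes. In DKO-severe 102 of 139 myeloid barcodes had none, 37 had 1 or more (26.6%, 19.5 to 34.8%), and 22 had all 3 genes. The 21 barcodes with 5 or more held 95.4% of the 720 C1q UMIs, with a lowest, median and highest count of 6, 13 and 154. In WT 3 of 23 barcodes had 1 to 3 C1q UMIs and 0 had 5 or more (0%, 0 to 14.8%). All 21 DKO-severe barcodes with 5 or more had Cd3 UMIs. Among the 16 without Cd3 UMIs 1 had a single C1q UMI. Among T barcodes 0.61% (WT) and 2.89% (DKO-severe) had a *C1qa* UMI.

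C1q UMIs outside the rule were present in both mice. The barcodes left out on *Lyz2* held 79 *C1qa* UMIs in 32 WT barcodes and 307 in 121 DKO-severe barcodes. Of the T barcodes, 18 in WT and 62 in DKO-severe had 5 or more C1q UMIs. These values lie beside the low C1q counts of the WT myeloid barcodes, and 11 DKO-severe myeloid barcodes would not have passed without *C1qa*.

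**Figure D5:**
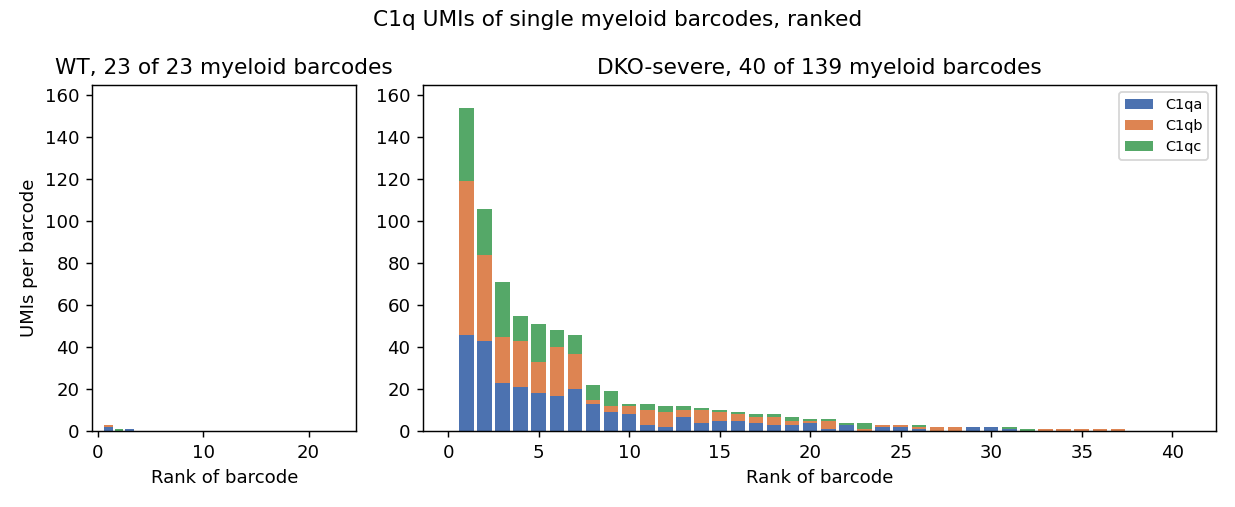
Stacked bars give the *C1qa*, *C1qb* and *C1qc* UMIs of single myeloid barcodes, ranked by their sum, for all 23 of WT (left) and the first 40 of 139 of DKO-severe (right). The highest WT barcode has 3 UMIs and the highest DKO-severe barcode 154, and the bars are at 0 from rank 38.

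The 21 DKO-severe barcodes with 5 or more C1q UMIs were set beside the other 118, as a description, since the split was chosen after its values were seen. Monocyte genes were low in them: *F13a1* was at 35.8 CPM against 459, *Vcan* at 13.4 against 134, *Ly6c2* at 161 against 685 and *Lyz2* at 1468 against 5598. *Hmox1*, which breaks down heme, was at 116 against 31.4 CPM, with 20 of its 78 UMIs in the 21 barcodes held by 1 of them. *Axl*, a receptor for dying cells, was at 35.8 against 4.44 CPM. Other macrophage genes were lower: *Csf1r* was at 106 against 160 CPM, *Adgre1* at 29.9 against 62.9 and *Cd68* at 40.3 against 74.5. The T cell gene *Trbc2* was at 1561 against 1065 CPM, and the median depth was 27085 against 21994 UMIs.

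Of 9 measured red pulp macrophage genes 2 were higher by 2-fold or more, 1 of them with an interval that excluded 0, and 2 were lower. The median log2 ratio was 0.29. In DKO-severe the top barcode of each gene held 39.0 to 61.5% of the UMIs of *Spic*, *Vcam1* and *Cd5l*, and at most 21.7% of those of the other 6 genes. The top barcode was the same for *Spic* and *Vcam1* and a different one for *Cd5l*. *Spic*, the factor that sets up iron-recycling macrophages, had 62 UMIs in DKO-severe against 3 (WT), or 17.2 against 7.78 CPM. Its log2 ratio was 1.15 (-0.47 to 3.46), an interval that holds 0, and 1 barcode held 31 of the 62 UMIs. The same barcode held 16 *Vcam1*, 32 *Mertk*, 12 *Slc40a1* and 12 *Itgad* UMIs, 13 *C1qa* UMIs and 227 Cd3 UMIs among 105921 in all. *Marco* and *Cd5l*, genes of marginal zone and tissue macrophages, had 23 of 37 and 32 of 52 UMIs in 1 other barcode with 68 Cd3 UMIs. *Cxcl9* and *Cxcl10*, chemokines induced by interferon, had 48 of 63 and 58 of 102 UMIs in 1 further barcode with 189 Cd3 UMIs. *Trf*, which encodes transferrin, was spread more widely, in 15 of 23 WT and 42 of 139 DKO-severe barcodes, and was lower at 85.6 and 22.5 CPM, a log2 ratio of -1.93 (-2.53 to -1.30).

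Among the 10 genes with the highest log2 ratio, 8 followed the T barcodes of the same mouse: *Ralyl*, *Cntn5*, *Penk*, *Nrn1*, *B3galt1*, *Slc24a3*, *Ntng1* and *Ptpn13* were each at 11.8 CPM or less in the DKO-severe barcodes without Cd3 UMIs. *Prtn3* and *Hist1h2ap* did not. *Prtn3*, a protease of early granulocytes and monocytes, was at 7.78 CPM (WT) and 179 CPM (DKO-severe), 4.52 (2.97 to 6.80), and at 948 CPM in the 16 without Cd3 UMIs against 4.83 in T barcodes. Of its 241 UMIs in the 16, 1 barcode held 130, and 8 of the 16 had any. *Hist1h2ap*, a histone gene of dividing cells, was at 10.4 and 223 CPM, 4.42 (3.06 to 6.30), and at 566 CPM without Cd3 UMIs. There 6 of the 16 barcodes held its 144 UMIs, 67 of them in 1. Among the 10 lowest, *Cd36* was the gene not held by T barcodes, and the other 9 included *Dapl1*, *Actn1* and *Grap2*, at 365, 177 and 816 CPM in WT T barcodes.

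*Prtn3* was followed into its neighbours after its values were seen. *Elane* and *Mpo*, neutrophil elastase and myeloperoxidase, had 159 and 65 UMIs in DKO-severe and none in WT. Of 139 DKO-severe myeloid barcodes 17 had 5 or more UMIs of *Elane*, *Mpo* and *Prtn3* together (12.2%, 7.29 to 18.9%), with a median of 27 and a highest count of 210, and 3 of these had no Cd3 UMIs. In WT 0 of 23 did. Of the 17 barcodes 13 had 5 or more UMIs of *Mki67* and *Top2a*, genes of dividing cells, as did 25 of the other 122. *Mki67* had 519 UMIs in DKO-severe myeloid barcodes (144 CPM) and none in those of WT, against 18.1 and 75.2 CPM in WT and DKO-severe T barcodes and 161 CPM in DKO-severe myeloid barcodes without Cd3 UMIs.

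Markers of other blood cells were mostly low. *Cd79a* had UMIs in 5 of 139 DKO-severe and 1 of 23 WT myeloid barcodes. The 12 neutrophil genes summed to 63.2 (WT) and 284 CPM (DKO-severe) in barcodes with Cd3 UMIs and to 512 and 802 CPM in those without, against 271312 CPM in barcodes with 50 or more *S100a8* UMIs, and *Ltf* had 0 UMIs. *Cd209a*, a lectin of dendritic cells and some monocytes, had 16 UMIs in 2 WT barcodes and 0 in DKO-severe. *Xcr1* of conventional dendritic cells had 0 UMIs in both genotypes. *Hba-a1*, a haemoglobin gene, was at 26.4 CPM in DKO-severe with 75 of its 95 UMIs in 1 barcode, below the 133 CPM of DKO-severe T barcodes. By list, 5 of 7 measured neutrophil genes were higher in DKO-severe by 2-fold or more (median log2 ratio 2.17), as were 1 of 5 B cell, 2 of 3 plasma cell, 2 of 2 natural killer cell and 3 of 4 red cell genes and 0 of 3 dendritic cell genes, while 1 B cell and 1 dendritic cell gene were lower. Over all genes 10.5% were higher and 5.45% lower by 2-fold or more. The part of the transcripts of these other blood cells in the differences above was not tested.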

How the data were processed

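The authors deposited raw UMI counts per gene and barcode, made with Cell Ranger 7.1.0 on mm10 and not normalized, in 1 matrix per genotype with 32285 genes and 2 hashtag features. Multi-mapping settings are not given in the sources used here. Genes come from the library labelled mRNA and hashtags from that labelled HTO. Counts were analysed in Python 3.11.15 with numpy 2.4.6 and scipy 1.17.1. Counts were summed over barcodes of a group and scaled to 1000000 UMIs (CPM). Ratios counted fewer than 3 UMIs as 3 and have exact conditional intervals, and a gene with 3 or fewer UMIs in each genotype got none. Shares have Clopper-Pearson intervals. In the alternatives, a gene got no ratio where the minimum of 3 alone turned its direction or where it had chosen the barcodes left out. The ratio script was tested on simulated data. Doublets were not removed in the values reported. The automatic threshold of Scrublet in scanpy 1.11.5 marked 0 barcodes in both matrices, so the highest 6% of scores were removed as an alternative.

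Named genes were those of 26 lists, the 10 highest and 10 lowest ratios and the 15 genes highest over other barcodes. The rankings took genes with 30 or more UMIs, 50 or more CPM in the higher genotype, UMIs in 5 or more myeloid barcodes and no single barcode with 50% or more of them, and left out immunoglobulin, T cell receptor segment, haemoglobin, mitochondrial and 5 sex-linked genes. *Mki67*, *Top2a*, *Lyz1*, the sums of subset genes, the sets of C1q and granule genes and 3 added alternatives were chosen after values were seen. *Clec7a* and *Mx1* of the lists were not matched by name, and some genes of the lists are not reported here. The ranking in barcodes without Cd3 UMIs was not made, as WT had 2. The members and lists were chosen with earlier results of these data known. Gene positions are from GENCODE vM21 by gene identifier, and promoters from RefSeq.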

Additional observations from a re-analysis of the deposited data

How the results depend on the processing

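Of the results that changed, the shares changed most with depth: thinned to 3900 UMIs, the share of myeloid barcodes was 0.113, 0.113 and 0.129% in WT and 0.707, 0.611 and 0.836% in DKO-severe, and the share of barcodes still meeting the rule that had Cd3 UMIs was 71.4% in WT in the first and second draws and 63.6, 73.7 and 71.2% in DKO-severe. The 71.4% in WT was 5 of 7 barcodes, with an interval of 29.0 to 96.3%. The genes lower in DKO-severe by 2-fold or more numbered 313 with a pseudocount of 5 CPM, 1600 with no UMI minimum, 259 without the barcode holding most UMIs of each gene and 329 scaled to the macrophage identity list, which moved the median of all genes from 0.10 to 0.29.

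Barcodes without Cd3 UMIs (2 in WT) left 95 genes higher and 166 lower. The complement median there rested on *C3* alone and reversed to -1.35. The other medians that moved were -0.75 for macrophage identity (14 genes), -0.026 for classical (8) and -0.48 for nonclassical monocyte genes (3), -0.14 for red pulp (2), 2.21 for MHC class II (5) and -0.91 for cytokine genes (3). Of the genes higher in DKO-severe over all myeloid barcodes, 3 reversed there: *Isg15* at -2.24, with 4 UMIs in WT and 10 in DKO-severe, *Mmp8* at -1.34, with 3 and 14, and *Cebpa* at -1.69, with 1 and 11, where setting the WT count to 3 makes up most of the value. Of 161 named genes 71 gave no value in these barcodes.

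Without the 21 barcodes with 5 or more C1q UMIs, an alternative added after seeing the data, *Spic* reversed to -0.42, with 3 UMIs in WT and 17 in DKO-severe, and the MHC class II median was -0.45. Without the barcodes with 5 or more *Elane*, *Mpo* and *Prtn3* UMIs, also added, the classical monocyte median was 0.43. The cause of these changes was not tested. The highest 6% of Scrublet scores held 0 of 23 WT and 16 of 139 DKO-severe myeloid barcodes, all 16 with Cd3 UMIs. With Cd3 UMIs alone, 3 or more UMIs in each part of the rule, the highest Scrublet scores left out or minor hashtags of 10% or more left out, no list median or count of genes changed beyond the limits set for it. No paired analysis was possible because each genotype had 1 mouse.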

Other observations

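The platelet and natural killer cell lists were also measured in the myeloid barcodes. *Pf4*, *Itga2b* and *Gp9* of platelets had 2, 3 and 2 UMIs in DKO-severe and 0 in WT. *Klrb1c*, the NK1.1 antigen, had 93 UMIs in DKO-severe and none in WT, at 27.8 CPM with Cd3 UMIs and 0 UMIs without, against 27.5 CPM in DKO-severe T barcodes. *Jchain*, the joining chain of secreted antibodies, had 187 of 198 DKO-severe UMIs in 1 barcode, and *Ighm* had 589 of 1437 in 1 barcode.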
